A study of Mus musculus with 16 samples.

Results

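Ucp3 and Slc25a25 encode proteins of the mitochondrial carrier family (SLC25), and their mRNAs were followed in the tibialis anterior of mice given the beta2-adrenoceptor agonist formoterol. The 16 animals were male C57BL/10 ScSn wild-type mice of 6 to 7 weeks, and each received 1 intraperitoneal injection of 0.2 mL of saline, with or without formoterol at 100 µg/kg. Muscles were taken 1 h or 4 h later, with 4 mice in each of the groups saline 1 h, formoterol 1 h, saline 4 h and formoterol 4 h. RNA of each mouse was hybridised to 1 Sentrix Mouse-6 bead array, and the arrays lay on 3 slides. Slide 1 held replicates 1 to 3 of both 4 h groups, slide 2 held replicate 4 of both 4 h groups and replicates 1 and 2 of both 1 h groups, and slide 3 held replicates 3 and 4 of both 1 h groups.

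Each of these 2 genes is represented by 1 of the 7596 probes kept, out of 46120 on the array. A probe was kept where its detection score, the authors' measure of signal over background that runs to 1, was 1 on at least 4 of the 16 arrays. Probes were otherwise named by a gene number held in the probe identifier, which gave names to 2591 kept probes for 2388 genes. The probe of Slc25a25, scl0227731.1_83-S, holds the gene number 227731 of that gene. No probe identifier holds the gene number of Ucp3 (22229), and its probe, scl0008.1_441-S, was chosen by measured values: it is the only kept probe whose formoterol over saline fold changes at both times lie within 0.0075 of those that the study printed for Ucp3. Both genes were also picked with their response to formoterol known. Their differences between formoterol and saline are therefore given as a description with standard errors (SE) and no p value, and only the comparison of the 2 saline groups was tested. The sequences of the probes were not used here, so binding of the Ucp3 probe to mRNA of a related gene was not examined.

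Mitochondrial carriers are proteins of the inner mitochondrial membrane that move nucleotides, phosphate, amino acids, acyl carnitines and other solutes between cytosol and matrix. Ucp3 encodes uncoupling protein 3, found mainly in skeletal muscle and brown fat, where its mRNA is known to rise with fasting, fatty acid supply and exercise. Its exact transport role is still debated. It differs from Ucp1, the uncoupling protein that makes heat in brown fat. Slc25a25 encodes SCaMC-2, a calcium-binding carrier that exchanges ATP-Mg for phosphate and so sets the adenine nucleotide content of the matrix. Beta2-adrenoceptors act in muscle mainly through cyclic AMP, protein kinase A and transcription factors such as CREB.

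In the mouse assembly GRCm38.p6, the RefSeq annotation places Ucp3 at chr7:100472991-100486432 on the plus strand, with Ucp2, which encodes another uncoupling protein, 6904 bases beyond its end (chr7:100493337-100499629). Slc25a25 lies at chr2:32414487-32451470 on the minus strand and has 3 annotated starts among the RefSeq promoter windows, while Ucp3 has 1. The 250 bases before each start were searched on both strands for the cyclic AMP response element TGACGTCA, its shorter core TGACG and the nuclear receptor half-site AGGTCA. The windows of Ucp3 and of 1 start of Slc25a25 are shown because they held matches, which stand in capitals.

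Ucp3, chr7:100472741-100472990, plus strand, start at 100472991, AGGTCA in capitals: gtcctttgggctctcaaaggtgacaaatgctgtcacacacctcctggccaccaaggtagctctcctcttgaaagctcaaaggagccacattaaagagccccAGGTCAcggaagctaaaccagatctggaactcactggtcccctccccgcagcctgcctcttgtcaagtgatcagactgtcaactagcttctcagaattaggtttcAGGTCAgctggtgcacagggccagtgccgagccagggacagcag
Slc25a25, chr2:32424067-32424316, minus strand, start at 32424066, TGACGTCA in capitals: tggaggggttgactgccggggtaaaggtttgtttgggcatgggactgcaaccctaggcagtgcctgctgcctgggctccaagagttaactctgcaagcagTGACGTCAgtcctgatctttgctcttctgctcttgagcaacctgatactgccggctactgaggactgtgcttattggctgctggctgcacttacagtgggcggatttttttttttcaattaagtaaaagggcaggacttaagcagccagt

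The Slc25a25 window held TGACGTCA once, 150 to 143 bases before the start. This palindrome contains the core TGACG on both strands, and the core was found nowhere else in the windows of both genes. Among 32851 RefSeq promoter windows of the same length, 1.55% held TGACGTCA and 17.8% held TGACG. The windows before the other starts of Slc25a25, at 32451470 and 32431151, held none of these motifs. The Ucp3 window held AGGTCA 2 times on the plus strand, 149 to 144 and 44 to 39 bases before the start, and lacked the cyclic AMP motifs. The half-site was present in 14.0% of all windows. These matches describe letters in a window only, and the array does not show which start of Slc25a25 was used.

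Signal is given as bead intensity scaled so that every array had the same median over the kept probes (523.5 arbitrary units). Scaled in this way, the median of probes with a score under 0.5, a measure of background, was 139.9 to 224.4 on the 16 arrays. Differences were computed on log2 values after raising any signal under 257.5 to that floor. Across arrays the kept probes had an unscaled median of 392.7 to 746.1, or 2.33 to 3.74 times background, and 5584 to 8528 probes were detected. Levels of the 2 probes are not set against each other, since probes differ in binding.

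Ucp3 signal was higher in each formoterol 4 h mouse than in any mouse of the other groups. Under saline at 1 h the replicates 1 to 4 gave 541, 536, 282 and 352 units. Under formoterol at 1 h they gave 552, 548, 637 and 601. The saline 1 h mice were spread over a 1.92-fold range and the formoterol 1 h mice over a 1.16-fold range, and the groups met without overlapping, with 541 the highest saline value and 548 the lowest formoterol value. Under saline at 4 h the replicates gave 321, 284, 370 and 380 units, and under formoterol at 4 h 734, 794, 821 and 837. At 4 h the groups were widely separated, the lowest formoterol value lying far above the highest saline value. The probe was detected on 15 of 16 arrays, the exception being replicate 3 of saline 1 h with a score of 0.987.

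Slc25a25 signal was high in all 8 formoterol mice and low in all 8 saline mice, at both times. Under saline at 1 h the replicates gave 353, 320, 313 and 371 units, and under formoterol at 1 h 1071, 1046, 1189 and 778. Saline mice at 1 h were closely grouped, while replicate 4 of formoterol stood below its group. Under saline at 4 h the values were 201, 373, 580 and 440.8, and under formoterol at 4 h 1310, 988, 1203 and 1011. Saline mice at 4 h covered a 2.88-fold range. The lowest of them, replicate 1, lay within the range of background with a score of 0.668 and was raised to the floor before log2. Its true level is known only as low, which limits how exactly the difference at 4 h can be stated. The probe was detected on 13 of 16 arrays, all 8 of formoterol among them, and the scores of the remaining pair of saline 1 h mice were 0.998 and 0.999.

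**Figure D1:**
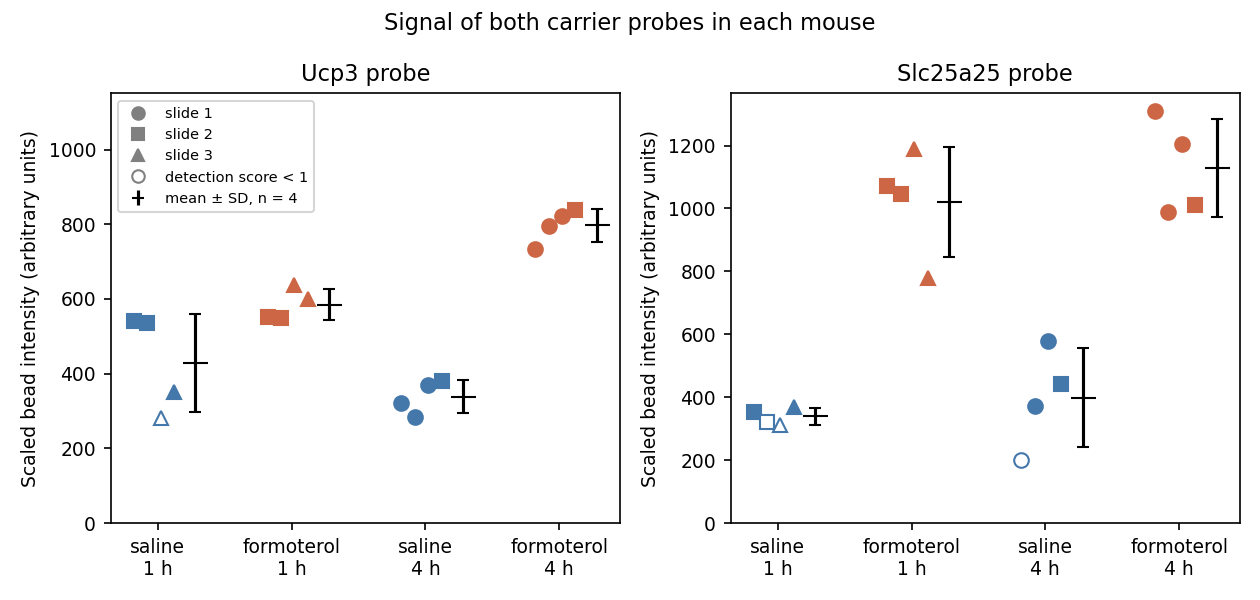
Scaled bead intensity (arbitrary units, axis from 0) of the Ucp3 and Slc25a25 probes in each of 16 mice by group. Points are mice, with the symbol giving the slide and open symbols a detection score below 1, and bars give mean ± SD of 4 mice. The saline 1 h mice separated by slide for Ucp3 (541 and 536 on slide 2, 282 and 352 on slide 3), whereas for Slc25a25 all formoterol mice stood at 778 or above and all saline mice at 580 or below.

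Differences between the groups are given for each gene in turn, and the 2 genes were not tested against each other. For Ucp3 the formoterol minus saline difference in log2 was 0.50 (SE 0.16, 95% interval 0.17 to 0.84) at 1 h and 1.24 (SE 0.16, 0.91 to 1.58) at 4 h. The response at 4 h minus that at 1 h was 0.74 (SE 0.23, 0.27 to 1.21). This value rests on a 1 h response that was 0.032 on slide 2 and 0.97 on slide 3. Formoterol 4 h minus formoterol 1 h was 0.45 (SE 0.16), with no overlap of these groups. Time and slide largely coincide, as slide 1 held only 4 h mice and slide 3 only 1 h mice, and with slide as a block this difference was 0.42 (SE 0.20). For Slc25a25 the difference was 1.58 (SE 0.18, 1.19 to 1.96) at 1 h and 1.50 (SE 0.18, 1.12 to 1.88) at 4 h. Its response at 4 h minus that at 1 h was -0.07 (SE 0.26, -0.61 to 0.46), and formoterol 4 h minus formoterol 1 h was 0.15 (SE 0.18, -0.23 to 0.53). The interval of that response difference extends well to both sides of 0, so a moderate rise or fall of the Slc25a25 response between the times is not excluded by these mice. Its sign turned with the deposited ratio or without the filter (0.014 each), with the offset (0.012), and without replicate 3 of saline 4 h (0.11) or of formoterol 1 h (0.0047), and it was -0.28 without replicate 1 of saline 4 h. Formoterol 4 h minus formoterol 1 h of Slc25a25 was 0.026 without replicate 4 of formoterol 1 h, 0.23 without replicate 3 of formoterol 1 h, 0.076 without replicate 1 of formoterol 4 h, and -0.066 within slide 2.

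Among the 7596 kept probes ordered by their difference at 1 h, Slc25a25 stood at place 15 and Ucp3 at place 118. At 4 h Slc25a25 stood at place 35 and Ucp3 at place 60. All 16 pairs of a formoterol mouse and a saline mouse had the higher signal under formoterol, for both genes and both times. Such separation upwards was seen for 4.38% of kept probes at 1 h and 10.5% at 4 h, and for 131 probes at both. Since the choice of these genes used the same contrasts, nothing further is read from these counts.

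Ucp3 and Slc25a25 did not pass the test between the saline groups, a contrast that the choice of members did not use directly, although it shares the saline mice. Ucp3 was lower at 4 h than at 1 h by a log2 difference of -0.29 (SE 0.16, 95% interval -0.63 to 0.04, limma adjusted p = 0.418). Slc25a25 was 0.23 higher (SE 0.18, -0.16 to 0.61, limma adjusted p = 0.583). For both genes the saline groups overlapped. Leaving out 1 mouse moved the Ucp3 difference to between -0.47 (without replicate 3 of saline 1 h) and -0.16 (without replicate 1 of saline 1 h). It moved that of Slc25a25 to between 0.041 (without replicate 3 of saline 4 h) and 0.43 (without replicate 1 of saline 4 h). Over all kept probes 11 (0.145%) were called in this comparison at an adjusted p under 0.05, of which 3 were higher and 8 lower at 4 h.

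The 1 h value of Ucp3 depended on the slide. On slide 2, where the saline mice were at 541 and 536 units and the formoterol mice at 552 and 548, the log2 difference was 0.032. On slide 3, where the saline mice were at 282 and 352 and the formoterol mice at 637 and 601, it was 0.97. The gap between these responses, 0.94, came mostly from the saline mice, which were 0.77 lower in log2 on slide 3 than on slide 2, while the formoterol mice were 0.17 higher. A gap of that size or more was found for 43 of 7596 kept probes, and the median gap over all kept probes was 0.14. With 2 mice of each treatment on a slide, slide and individual mouse cannot be told apart. Leaving out replicate 3 of saline 1 h, the mouse without detection, lowered the 1 h difference from 0.50 to 0.32.

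The other differences varied less with the slide. For Ucp3 at 4 h the difference was 1.28 within slide 1 and 1.14 between the single mice of each treatment on slide 2. For Slc25a25 at 1 h it was 1.65 within slide 2 and 1.50 within slide 3. At 4 h it was 1.60 within slide 1 and 1.20 on slide 2, again from single mice. With slide as a block in the fit, the 4 formoterol minus saline differences were the same as without it, because every slide held equal numbers of both treatments at each time.

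**Figure D2:**
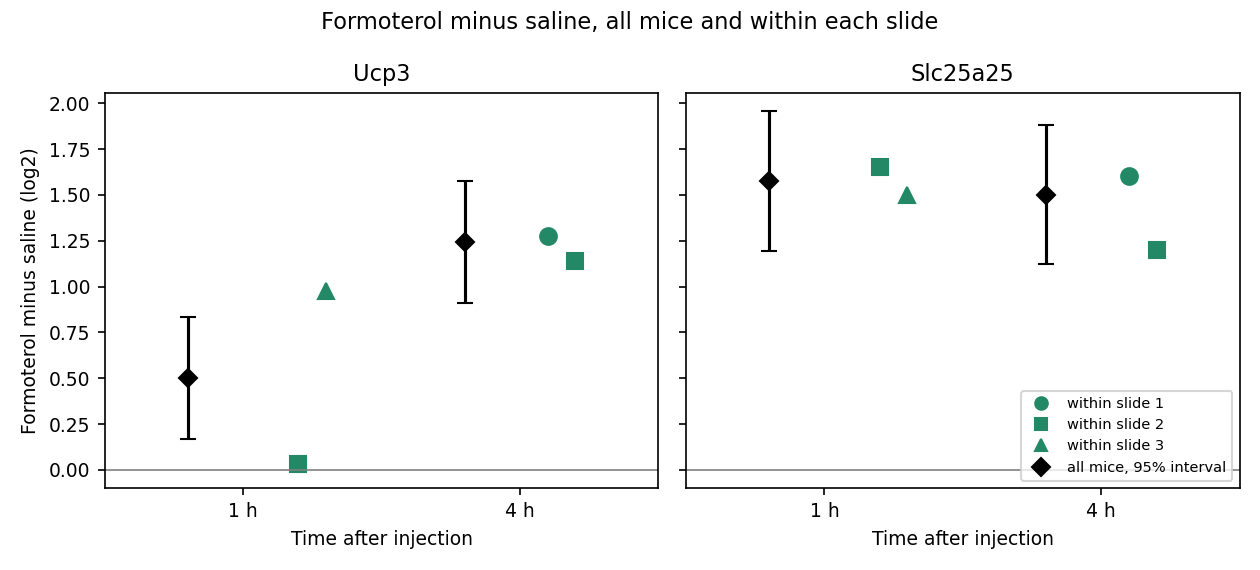
Formoterol minus saline difference (log2) of Ucp3 and Slc25a25 by hours after injection, as diamonds with 95% intervals for all 4 mice a group and as green symbols within each slide (4 h on slide 2 rests on 1 mouse of each treatment). For Ucp3 at 1 h slide 2 gave 0.032 and slide 3 gave 0.97, while at 4 h both slides gave more than 1.

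Few of the other mitochondrial carriers could be followed by a named probe. Of 55 SLC25 family names listed, 51 are genes of the reference, and 8 besides Slc25a25 had a kept probe. None of these 8 was called at 1 h, and 3 were called higher and 0 lower at 4 h. Over all kept probes, limma called 211 (2.78%) at 1 h and 1206 (15.9%) at 4 h. The median log2 difference of the 8 carriers was 0.05 at 1 h and 0.24 at 4 h, beside medians of -0.0044 and 0.018 over all kept probes. Without replicate 1 of saline 4 h, or without replicate 4 of formoterol 4 h, 1 carrier was called at 4 h.

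The carrier with the largest difference was Slc25a22, a mitochondrial glutamate carrier. Its signal was 321 to 380 units in saline mice and 491 to 629 in formoterol mice at 4 h, without overlap, a rise of 0.70 in log2 (SE 0.13, limma adjusted p = 0.0010). At 1 h the groups of Slc25a22 overlapped (256 to 425 and 388 to 473 units), with a difference of 0.35 (SE 0.13, limma adjusted p = 0.212). Slc25a5, the adenine nucleotide translocase ANT2 that exchanges ADP for ATP, rose by 0.38 at 4 h (SE 0.12, limma adjusted p = 0.033), from 2207 to 2600 units under saline to 2744 to 3499 under formoterol. For Slc25a5 the call at 4 h was lost in 7 of 30 alternative settings, and for Slc25a22 in 1, without a change of direction. Among these, the call of Slc25a5 was lost when replicate 1 or 4 of either 4 h group was left out, with a limma adjusted p of 0.061 to 0.108. Ucp2 had a probe that was too dim to be kept. No probe identifier named Ucp1, the phosphate carrier Slc25a3, the muscle translocase Slc25a4, the carnitine carrier Slc25a20, or Slc25a23 and Slc25a24, the other calcium-binding ATP-Mg carriers.

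Genes of adenine nucleotide and phosphate handling, the processes that the ATP-Mg carrier serves, differed in both directions at 4 h. Of 8 measured genes other than Slc25a25, 0 were called at 1 h, beside 2.78% of all kept probes. At 4 h 1 was higher (Slc25a5) and 2 lower, beside 15.9% of all kept probes called in either direction. The list's median log2 difference was -0.05 at 1 h and -0.15 at 4 h. Ckb, the brain-type cytosolic creatine kinase, fell by 0.28 at 4 h (SE 0.08, limma adjusted p = 0.018), from 507 to 605 units under saline to 423 to 462 under formoterol, without overlap. Ak3, a GTP:AMP phosphotransferase of the mitochondrial matrix, fell by 0.22 (SE 0.07, limma adjusted p = 0.042), a call that was lost in 14 of 30 alternative settings. The other kept probe of Ak3 was at -0.15 and did not pass (SE 0.08, limma adjusted p = 0.231). These settings included leaving out replicate 1, 2 or 3 of saline 4 h, replicate 2, 3 or 4 of formoterol 4 h, and replicate 1 or 2 of formoterol 1 h. The call of Ckb was lost in 5 of 30 alternative settings. Among them were leaving out replicate 1 of saline 4 h (limma adjusted p = 0.076) or replicate 2 of formoterol 4 h (0.054). Without replicate 1 of saline 4 h no gene of this list was called, and without replicate 2 or replicate 4 of formoterol 4 h 1 was. The mitochondrial creatine kinase Ckmt2 (0.02 in log2 at 4 h) and the outer membrane channel Vdac1 (0.11) did not pass the test. Neither did Vdac3, at -0.36 at 4 h (SE 0.22, limma adjusted p = 0.286).

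Fatty acid oxidation is a process to which Ucp3 is often linked. Its list here also holds genes of lipid supply and transcription, such as Lpl, Angptl4 and Ppargc1b. Of 12 measured genes 0 were called at 1 h, beside 2.78% of all kept probes. At 4 h 3 were higher and 1 lower, beside 15.9% of all kept probes called in either direction. The 12 genes had a median log2 difference of 0.03 at 1 h and 0.13 at 4 h. The 8 not called at 4 h were Acadl (-0.35), Acsl4 (-0.34), Etfa (-0.11), Hadhb (-0.02), Rxrb (0.09), Crat (0.18), Acsl1 (0.24) and Fabp3 (0.28). Angptl4, a secreted inhibitor of lipoprotein lipase, rose by 1.32 at 4 h (SE 0.24, limma adjusted p = 7.5e-04), with 209 to 282 units under saline and 424 to 1052 under formoterol. Its probe was detected on 8 of 16 arrays, and its lowest saline values lay within the range of background. The call of Angptl4 at 4 h was lost in 1 of 30 alternative settings. Lpl, lipoprotein lipase itself, rose by 0.39 (SE 0.11, limma adjusted p = 0.023), although its groups overlapped (5287 to 7480 and 7151 to 10623 units). Mlycd, malonyl-CoA decarboxylase, which relieves the brake on mitochondrial fatty acid entry, rose by 0.36 (SE 0.10, limma adjusted p = 0.017). The call of Lpl was lost in 6 of 30 alternative settings and that of Mlycd in 5. For Lpl these included leaving out replicate 1 or 2 of saline 4 h or replicate 4 of formoterol 4 h (limma adjusted p 0.065 to 0.080). For Mlycd they included leaving out replicate 1 of saline 4 h (limma adjusted p = 0.067) or replicate 4 of formoterol 4 h (0.055). Without replicate 1 of saline 4 h, or replicate 4 of formoterol 4 h, 2 genes of the list were called.

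Ppargc1b, the transcriptional coactivator PGC-1 beta, fell at 4 h. Its signal was 539 to 616 units under saline and 339 to 396 under formoterol, a fall of 0.65 in log2 (SE 0.11, limma adjusted p = 2.7e-04). At 1 h its difference was 0.13 (SE 0.11, limma adjusted p = 0.680), and the difference between the responses was -0.78 (SE 0.15, limma adjusted p = 0.0048). Of the 47 genes measured in the lists, Ppargc1b and Ckb (4.26%) were called for a difference between the responses, beside 267 of all kept probes (3.52%). The Ppard and Acot2 probes that an identifier named were too dim to be kept, and no identifier named Ppara, Pparg, Cpt1b or Ppargc1a, which encodes the related coactivator PGC-1 alpha. Of the kept probes, 5005 have no name from their identifier and may include probes of these genes, which were not used here, so the fall of Ppargc1b says nothing of Ppargc1a or Ppard.

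Calcium handling and citric acid cycle genes were not called at either time. For calcium handling this was 0 of 10 measured genes at 1 h and at 4 h, with medians of 0.02 and -0.02. For the citric acid cycle it was 0 of 10, with medians of 0.0030 and 0.065. Over all kept probes 2.78% were called at 1 h and 15.9% at 4 h, so 0 of 10 says little of either process. Leaving out 1 mouse gave up to 3 calls at 4 h, namely 3 and 2 in the calcium list without replicates 4 and 3 of saline 4 h, and 3 and 1 in the cycle list without replicates 3 and 4 of saline 4 h. The cycle list had 1 call without replicate 1 of formoterol 4 h. The calcium list had 1 without replicate 1 of saline 1 h or of formoterol 1 h, and at 1 h 1 without replicate 4 of formoterol 1 h. The calcium handling genes included the sarcoplasmic reticulum release channel Ryr1 (0.06 at 1 h and 0.14 at 4 h in log2) and Letm1 of the inner mitochondrial membrane (-0.07 and 0.06). Larger differences in this list also did not pass. At 4 h Calm2 was at -0.67 (SE 0.27, limma adjusted p = 0.101). Atp2a2, detected on 4 of 16 arrays, was at -0.28 (SE 0.10, limma adjusted p = 0.053). Casq1 was at -0.30 at 1 h (SE 0.10, limma adjusted p = 0.117). Over all 5 lists, 47 genes other than Ucp3 and Slc25a25 were measured. None was called at 1 h, beside 2.78% of all kept probes. At 4 h 6 were higher and 3 lower, that is 19.1% beside the 15.9% of all kept probes. At 1 h the differences of the 47 genes ran from -0.30 to 0.55, and at 4 h from -0.67 to 1.32.

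**Figure D3:**
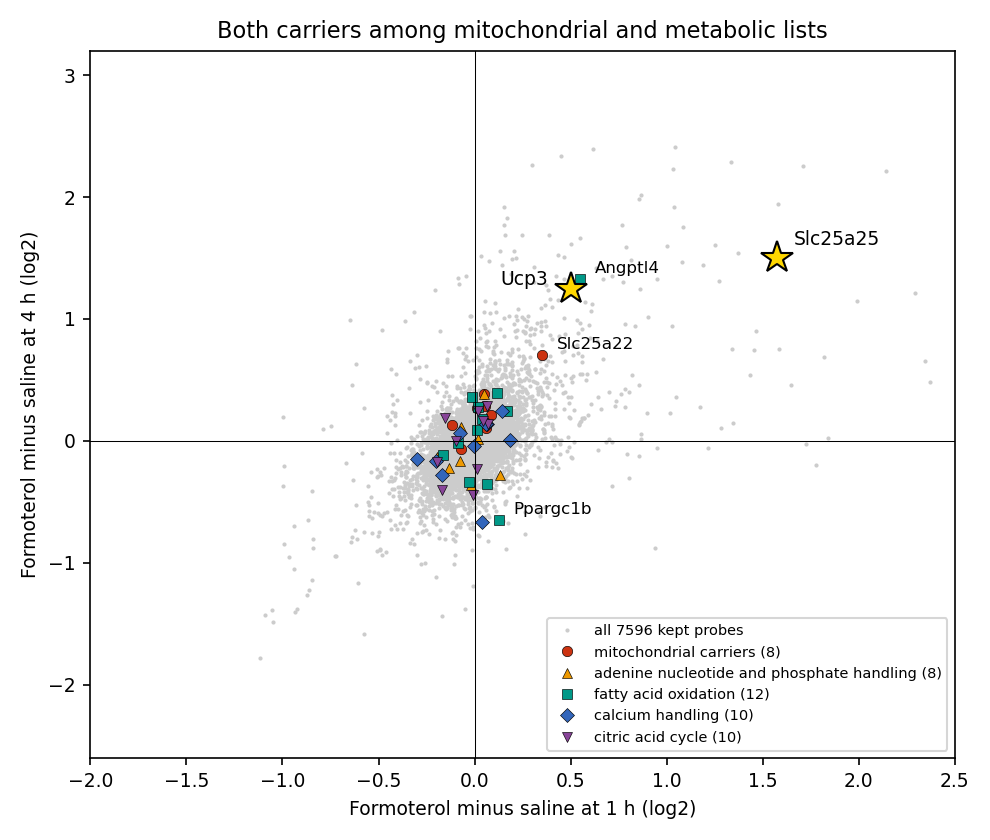
Formoterol minus saline difference (log2) at 1 h on the horizontal axis and at 4 h on the vertical axis. Grey points are 7596 kept probes (4 lie beyond the axes), coloured symbols the measured genes of 5 lists with their number, and stars Ucp3 and Slc25a25. Slc25a25 stood alone to the right of the list genes, at 1.58 and 1.50, and Ucp3 lay beside Angptl4 at 0.50 and 1.24.

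The probes most like each gene over the 16 arrays were described by Pearson's r of log2 signal. All 16 arrays share the 4 treatment groups and the median scaling, so r reflects mainly the differences between groups, and r of deviations from group means is given beside it. For Ucp3 the 5 named probes with the highest r were Cebpb (0.92), Slc25a22 (0.92), Pde4d (0.91), Leng9 (0.88) and Gpat3 (0.88). Cebpb encodes the transcription factor C/EBP beta, Pde4d a cyclic AMP phosphodiesterase and Gpat3 an enzyme of glycerolipid synthesis. Of these Slc25a22, itself a mitochondrial carrier, had the highest r of deviations from group means to Ucp3 (0.75). For the others that r was 0.30 to 0.54. Ucp3 deviated most among the saline 1 h mice (SD 0.47 in log2, beside 0.08 to 0.19 in the other groups), which separated by slide. These r to Ucp3 therefore lean on 4 mice in which slide and mouse cannot be told apart. The 5 probes had larger differences at 4 h than at 1 h, as Ucp3 did, for example 0.77 and 1.77 for Cebpb and 0.31 and 1.30 for Gpat3. Choosing probes by r over the 4 groups favours such a likeness, so nothing further is read from it.

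For Slc25a25 the 5 named probes were Cdkn1a (0.95), Coq10b (0.93), Pde4d (0.90), Nudt18 (0.90) and Sfxn3 (0.89). Cdkn1a encodes the cell cycle inhibitor p21, Coq10b a coenzyme Q binding protein of mitochondria and Sfxn3 a sideroflexin, another mitochondrial membrane protein. Cdkn1a was 1.25 higher at 1 h and 1.61 at 4 h, and Coq10b 0.63 and 0.57, so these were already high at 1 h, whereas Pde4d (1.04 and 1.92) and Nudt18 (0.85 and 1.99) were higher at 4 h. Pde4d was on both lists. The r of deviations from group means to Slc25a25 was 0.60 for Cdkn1a, 0.66 for Coq10b, 0.32 for Pde4d, 0.70 for Nudt18 and 0.41 for Sfxn3. Slc25a25 deviated most among the saline 4 h mice (SD 0.49 in log2, beside 0.12 to 0.26 in the other groups), so these r lean on that group. Between Ucp3 and Slc25a25 r was 0.80 over the 16 arrays and 0.17 for deviations from group means.

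**Figure D4:**
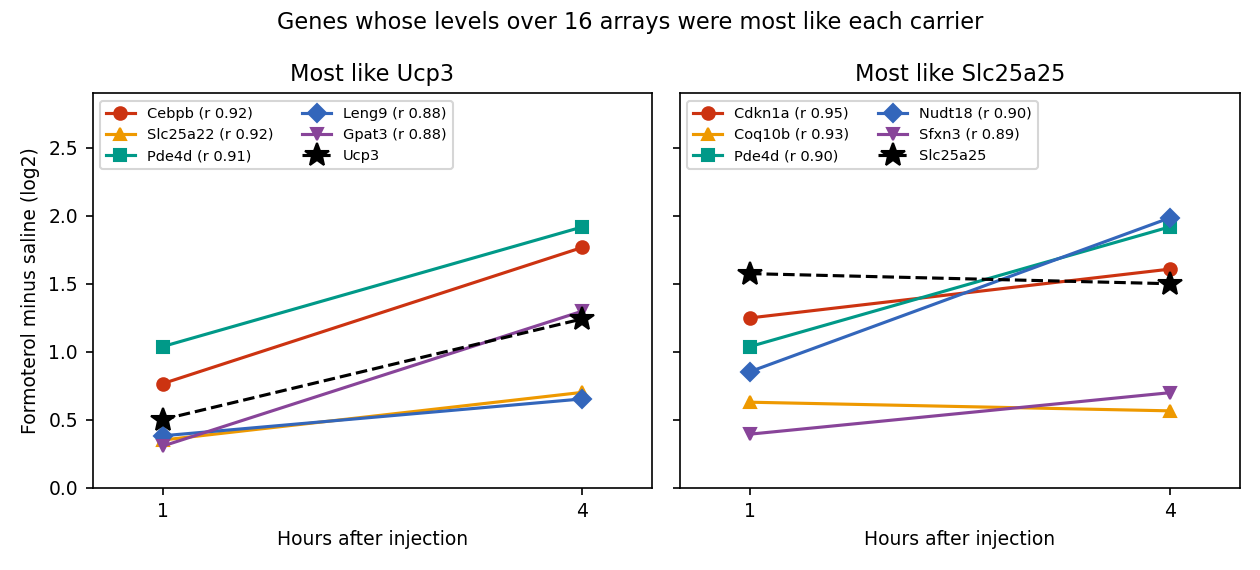
Formoterol minus saline difference (log2) at 1 h and 4 h after injection for the 5 named genes most like Ucp3 (left) and most like Slc25a25 (right), with the gene itself as stars. The genes most like Ucp3 all had the larger difference at 4 h, while Slc25a25 and Coq10b were at similar heights at both times (1.58 and 1.50, 0.63 and 0.57). The genes were chosen by r over these same arrays, which favours a like course.

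Among markers of other cells in the muscle, summed blood markers differed with treatment at 4 h and summed fibroblast markers at both times. The part of such cells in the values of Ucp3 and Slc25a25 was not tested. The summed signal of the globins Hba-a1 and Hbb-b1 (2 of 3 blood markers measured) was 5878 to 19622 units in saline 4 h mice and 24622 to 42282 in formoterol 4 h mice, and 13920 to 38311 and 22189 to 39917 at 1 h. Hba-a1 was 1.82 higher in log2 under formoterol at 4 h (SE 0.32, limma adjusted p = 6.5e-04). Hbb-b1 was 1.13 higher and did not pass (SE 0.39, limma adjusted p = 0.057). From saline 1 h to saline 4 h the log2 difference of Hba-a1 was -1.46 (SE 0.32, limma adjusted p = 0.075). The summed signal of Col1a1, Col1a2, Col3a1 and Dcn (4 of 5 fibroblast markers) was 21539 to 31779 under saline and 17049 to 19266 under formoterol at 4 h, and 20601 to 25212 and 14192 to 18200 at 1 h. These fibroblast sums did not overlap between treatments at either time. Of the 4 genes 2 were called lower at 1 h and 3 at 4 h, beside 69 and 537 of the 7596 kept probes. Dcn was not called at 4 h (0.06, SE 0.06, limma adjusted p = 0.525). Pecam1 of endothelium and Csf1r of macrophages, each the measured gene of its list, were not called. Of the brown fat list, where Ucp3 is also expressed, 1 of 6 genes had a kept probe, Cox7a1, which muscle itself uses and which was not called, and no probe identifier named Ucp1. Fabp4, the measured gene of 7 white fat markers, was at 232 to 407 units in all groups and not called. The fast fibre gene Actn3, the measured gene of 10 skeletal muscle markers, was abundant at 19150 to 25419 units in every mouse, and none of the 6 slow fibre markers had a kept probe. In whole muscle, fewer cells of a type and less mRNA per cell cannot be told apart.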

How the data were processed

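Per the labels, each array held the RNA of a different mouse. The authors read the beads with BeadStudio 1.5.1.3, and their deposited table gives a bead intensity for every probe, not normalized, and a detection score between 0 and 1. Their deposited ratio is the intensity over its array's median, taken over probes with a score of 1 on at least 4 arrays, and could be recomputed within a relative 0.0012 (ratios of 0.5 or more). For the present values the same 7596 probes were kept, intensities were scaled to the mean of the 16 medians, raised to percentile 1 (257.5, 1215 values) and converted to log2. The R package limma 3.58.1 (R 4.3.3) estimated 4 group means from all 16 arrays, with 12 residual and 5.97 prior degrees of freedom. Adjustment by Benjamini-Hochberg ran over 7596 probes, and a call means an adjusted p under 0.05. The number of arrays limits the precision. On simulated data for the 4 h comparison, 99% of 200 probes changed 2-fold were found among 7596, and 10 unchanged probes were called. The simulated noise was independent, without slide differences, and smaller changes were not simulated. How often differences under 2-fold would be found is therefore not known from it.

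Where a gene of a list had several kept probes, the brightest was used. Named genes are both carriers, the context genes that an identifier names, up to 6 called genes of each list, and the 5 probes most like each carrier. Some list genes are counted but not reported by name here. List genes given as not called were picked after their values were seen. Members, lists and rule were chosen with earlier results of these data known. Alternatives changed the normalization (quantile, normexp with quantile, the deposited ratio), the filter (none, or a score of 0.99 on a whole group), the floor (an offset of 50, or percentile 5), the fit (each time alone, eBayes with trend and robust, slide or replicate number as a block, each slide alone, the t-test of the methods) and the arrays (each left out). Further software was Python 3.11.15 (numpy 2.4.6, pandas 2.3.3).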

Additional observations from a re-analysis of the deposited data

Results flagged for a closer look

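In 44 groups of 4 mice, formed by Ucp3, Slc25a25 and 9 genes of the lists, no mouse stood far apart for Ucp3 or Slc25a25, and 3 groups had such a mouse for another gene. The gap between the outermost mouse and its nearest neighbour took up 0.87 of the range of Ckb under formoterol at 1 h, 0.89 of the range of Ckb under saline at 4 h, and 0.83 of the range of Lpl under formoterol at 4 h. Chance alone marks about 5% of groups. Replicate 4, on slide 2, was the highest of the formoterol 4 h mice for Lpl, and without it the difference at 4 h was 0.26, with a limma adjusted p of 0.080.

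The response to formoterol differed between 4 h and 1 h for Ckb by -0.42 in log2 (SE 0.11, limma adjusted p = 0.043) and for Ppargc1b by -0.78 (SE 0.15, limma adjusted p = 0.0048). Both genes were above saline by 0.13 at 1 h without passing the test, and fell at 4 h. Ckb had a mouse far apart under formoterol at 1 h and under saline at 4 h, and both groups enter this difference. How these 2 calls hold under the alternative settings was not examined. Among the 47 measured list genes 4.26% were called for this difference, beside 3.52% of all kept probes.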

How the results depend on the processing

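Of 232 recomputed differences of Ucp3 and Slc25a25, 224 moved by less than 1 pooled SD of the probe. The other 8 came from normexp with quantile normalization or from single slides. Many of the 224 could not move at all. Leaving out a mouse of a group not compared, fitting 1 time alone, or changing only how the spread is estimated leaves a difference as it was. The 224 are therefore not read as a measure of stability. Normexp gave 1.53 for Ucp3 at 4 h and 1.96 and 1.94 for Slc25a25 at 1 h and 4 h. Ucp3 at 1 h was 0.032 within slide 2 and 0.97 within slide 3. On slide 2, where 4 h has 1 mouse a treatment, the response at 4 h minus that at 1 h was 1.11 for Ucp3 and -0.46 for Slc25a25, and Slc25a25 at 4 h was 1.20. Leaving out 1 array at a time gave 0.32 to 0.63 for Ucp3 at 1 h, 1.16 to 1.30 at 4 h, and 1.50 to 1.70 and 1.29 to 1.68 for Slc25a25. The saline contrasts kept their direction and passed the threshold in none of 28 settings each (limma adjusted p 0.232 to 0.999 for Ucp3, 0.411 to 0.999 for Slc25a25). Planned values for Ucp3 probes named by gene number could not be made, as no identifier holds that number.

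Counts of called probes moved more. Without the filter they were 123 at 1 h, 608 at 4 h and 123 for the difference between responses. The methods' t-test on log2 values called 6 at 1 h and 393 at 4 h after Benjamini-Hochberg adjustment. Slide 2 alone gave 633 at 1 h, 274 at 4 h, 129 for the difference between responses and 18 between saline groups, and slide 3 alone 40 at 1 h. Leaving out 1 array gave 133 to 266 at 1 h, with 133, 138 and 135 without replicates 1 and 2 of saline 1 h and replicate 1 of formoterol 1 h. Between saline groups the count of 11 (1046 at an unadjusted p under 0.05) became 4 with quantile normalization or slide as a random block, 0 with normexp or slide as a fixed block, 7 with the deposited ratio, and 6 with the offset or with trend and robust. Leaving out 1 array gave 0 to 79 there, with 0 without replicates 2 or 4 of saline 1 h or replicate 3 of saline 4 h, 30 and 17 without replicates 1 and 3 of saline 1 h, 7 without replicate 3 of formoterol 1 h or replicates 3 or 4 of formoterol 4 h, and 79 without replicate 4 of saline 4 h. The causes were not tested.

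Same-numbered mice did not deviate together (correlations of -0.25 to 0.30), so the numbers were not taken as pairs. With the replicate number as a block, 31 probes were called between saline groups, and 216 at 1 h, 1275 at 4 h and 279 for the difference between responses. The differences of Ucp3 and Slc25a25 could not change with that block, as every group held each replicate number. The Slc25a25 signal in saline mice, near background in 1 and with scores under 1 in 3 of 8, limits how exactly its differences are known.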
